A study of Mus musculus with 12 samples.

Results

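The genes described here release arachidonic acid and related fatty acids from membranes or turn them into eicosanoids. They were chosen by name for their roles, with earlier results of these data known, and comprise 10 genes of the 49585 counted in each library. *Pla2g4a* encodes the cytosolic phospholipase A2, *Ptgs1* and *Ptgs2* encode the cyclooxygenases, and *Ptges* and *Ptgds* encode prostaglandin E and D synthases. *Alox5*, *Alox12*, and *Alox15* encode lipoxygenases, *Alox5ap* encodes the membrane partner of 5-lipoxygenase, and *Ephx2* encodes the soluble epoxide hydrolase.

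The adrenal cortex of 12 male C57BL/6J mice was analysed by RNA-seq, 1 library per mouse. The mice entered the diets at 6 weeks of age and stayed on them for 20 weeks. There were 4 mice on a low-fat diet (LFD, 10% of energy as fat, called a normal diet in the labels), 4 on a high-fat diet (HFD, 60% of energy as fat), and 4 on the HFD with icosapent ethyl, an ethyl ester of eicosapentaenoic acid, added in the last 10 weeks. The genotype label of all 12 mice is Fads2-/-, whereas the methods of the study describe wild-type mice for these diets. All 12 expressed *Fads2*, at 452 to 2181 CPM (reads scaled to a common library size, as described below).

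The eicosanoid pathway begins when a phospholipase A2 cuts a polyunsaturated fatty acid, mostly arachidonic acid, from a membrane phospholipid. Cyclooxygenases convert the acid to prostaglandin H2, which synthases turn into the individual prostanoids, whereas lipoxygenases make leukotrienes and hydroxy acids, and cytochrome P450 enzymes make epoxides that epoxide hydrolases open to diols. In the adrenal cortex, arachidonic acid and its lipoxygenase and epoxygenase products are known to affect the transfer of cholesterol into mitochondria and the expression of *Star*, and eicosapentaenoic acid is an alternative substrate of the same enzymes.

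The total count of a library was between 34785979 and 67295963, with medians of 44313024.5 in LFD mice, 47897794.5 in HFD mice, and 43573101.5 in icosapent ethyl–treated mice. Levels are CPM after TMM scaling in edgeR (trimmed mean of M values), and means are given ± SD for 4 mice. Single values follow the numbers of the mice, which are 2, 5, 6, and 7 for LFD and 1 to 4 in the other groups. All 10 adrenocortical markers were expressed, with a summed level of 56398 ± 12271 CPM in LFD, 83611 ± 21124 CPM in HFD, and 76614 ± 13759 CPM in icosapent ethyl–treated mice. In HFD versus LFD mice, 10 of the 10 had a positive log2 fold change, around a median of 0.50, though edgeR called none. All 6 fibroblast and capsule markers had negative values in that comparison (median -0.25, 2 with an unadjusted p below 0.05 and 0 called by edgeR), and their sum ranged from 314 to 522 CPM in LFD mice, from 211 to 313 CPM in HFD mice, and from 234 to 337 CPM in icosapent ethyl–treated mice. The part of these cell types in the results below was not tested. The 8 chromaffin cell markers of the adrenal medulla were expressed as well, and their summed level ranged from 4997 to 17724 CPM in LFD mice, from 2446 to 7868 CPM in HFD mice, and from 4446 to 8623 CPM in icosapent ethyl–treated mice. Icosapent ethyl replicates 1 and 2 stood apart in mesothelial markers such as *Upk3b*, though not in *Lrrn4*. Their *Upk3b* was at 14.2 and 9.43 CPM, against 1.94 and 3.12 CPM in replicates 3 and 4. It was at 0.43 to 1.14 CPM in HFD mice and at 0.0950 to 2.88 CPM in LFD mice. *Lrrn4* was at 9.52 and 10.7 CPM in replicates 1 and 2, against 9.30 and 15.3 CPM in replicates 3 and 4. Whether any of the 10 genes was called in treated mice is also given without replicates 1 and 2, with fold changes for some genes. Results on the wider gene list are given only with them. In bulk tissue, fewer cells of a type and less RNA per cell cannot be told apart.

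The promoters of the gene that varied most among those with counts in every mouse, *Ptgs2*, and of the gene with the largest fold difference between HFD and LFD mice, *Ptgds*, are shown from 250 bases before to 30 bases after the RefSeq start of the gene (assembly GRCm38.p6, 5′ to 3′ on the strand of the gene). The *Ptgs2* sequence is chr1:150099781-150100060 on the plus strand, and the *Ptgds* sequence is chr2:25469720-25469999 on the minus strand. Capitals mark matches to 3 motifs searched on both strands, the CRE half-site TGACG, the E-box CACGTG, and the TATA box TATAAA.
Ptgs2: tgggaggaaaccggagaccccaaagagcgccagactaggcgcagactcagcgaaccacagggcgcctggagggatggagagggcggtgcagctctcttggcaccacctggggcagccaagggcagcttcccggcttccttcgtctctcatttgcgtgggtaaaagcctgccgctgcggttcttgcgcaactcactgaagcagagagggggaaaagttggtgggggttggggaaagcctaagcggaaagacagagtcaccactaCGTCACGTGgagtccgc
Ptgds: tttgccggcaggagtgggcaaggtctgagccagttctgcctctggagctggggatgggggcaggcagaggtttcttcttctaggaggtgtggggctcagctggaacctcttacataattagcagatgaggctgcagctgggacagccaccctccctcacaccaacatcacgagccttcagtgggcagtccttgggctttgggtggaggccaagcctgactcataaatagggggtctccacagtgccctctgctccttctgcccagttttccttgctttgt
In *Ptgs2*, the CRE half-site lies on the minus strand at bases 14 to 18, counted from 1 at the start base, and overlaps the E-box at bases 17 to 22. In *Ptgds*, these letters do not occur in the window. Promoter sequences were matched for 7 of the 10 genes, and the one further match among them was a TATA box on the minus strand at bases -200 to -195 of 1 of the 2 starts of *Pla2g4a*. Of 27025 promoter windows of the same length, 20.1% hold the CRE half-site, 6.89% the E-box, and 13.7% the TATA box.

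The 10 genes spanned a wide range of levels. Per kilobase of exon, the mean over the 12 mice was 15.8 CPM for *Ptgs2*, 7.78 CPM for *Alox5ap*, 7.59 CPM for *Ptges*, 4.59 CPM for *Ptgs1*, and 4.31 CPM for *Ephx2*. On the same scale it was 1.26 CPM for *Pla2g4a*, 1.12 CPM for *Ptgds*, 0.783 CPM for *Alox12*, 0.212 CPM for *Alox5*, and 0.146 CPM for *Alox15*. *Ephx2* was above *Pla2g4a*, and *Alox12* above *Alox5*, in 12 of 12 mice, and *Ptges* was above *Ptgs1* in 11 of 12. *Ptgs2* was above *Alox5ap* in only 7 of 12 mice, *Ptgs1* above *Ephx2* in 7 of 12, and *Alox5ap* above *Ptges* and *Pla2g4a* above *Ptgds* in 8 of 12 each, so that the order of these neighbours varied from mouse to mouse. The 5-lipoxygenase gene itself was therefore low per length, whereas its partner *Alox5ap* was among the higher genes.

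**Figure D1:**
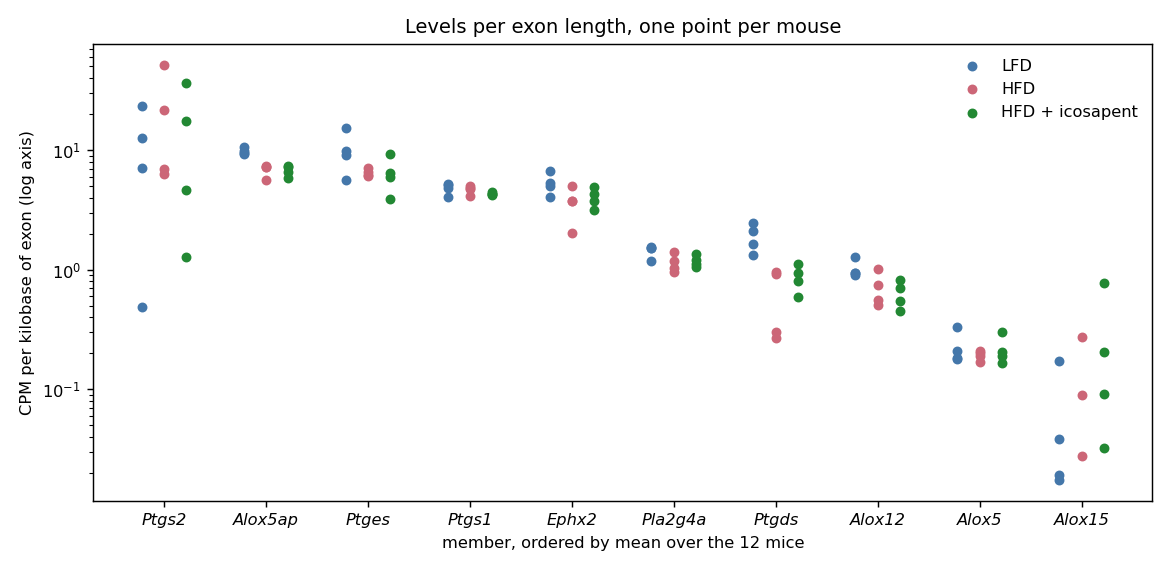
Level per kilobase of exon (CPM per kilobase, log axis) of the 10 genes in each mouse, ordered by the mean over the 12 mice, with 1 point per mouse and 1 colour per group. *Ptgs2* covers the widest range of the genes with counts in all mice, *Alox15* is lowest, and the HFD mouse with no *Alox15* count is not drawn on the log axis.

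The comparison of HFD with LFD mice asks how diet-induced obesity bears on these genes. In this comparison, 9 of the 10 genes had enough counts to be tested, and 8 of the 9 were lower in HFD mice, beside 51.8% of all 15909 genes tested. Their median log2 fold change was -0.53, and that of all genes was -0.015. By edgeR's quasi-likelihood test, none of the 9 had an adjusted p below 0.05, a threshold that 230 genes (1.45%) passed, 155 of them higher and 75 lower. Without scaling of the library totals, 84 genes passed, 40 higher and 44 lower. An unadjusted p below 0.05 was reached by 3 of the genes, *Ptgds*, *Alox5ap*, and *Ptges*, all lower in HFD mice, as were 12.5% of all genes tested. DESeq2, on the same counts, gave 2 of the genes, *Ptgds* and *Alox5ap*, an adjusted p below 0.05, beside 6.22% of all genes that it called lower.

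**Figure D2:**
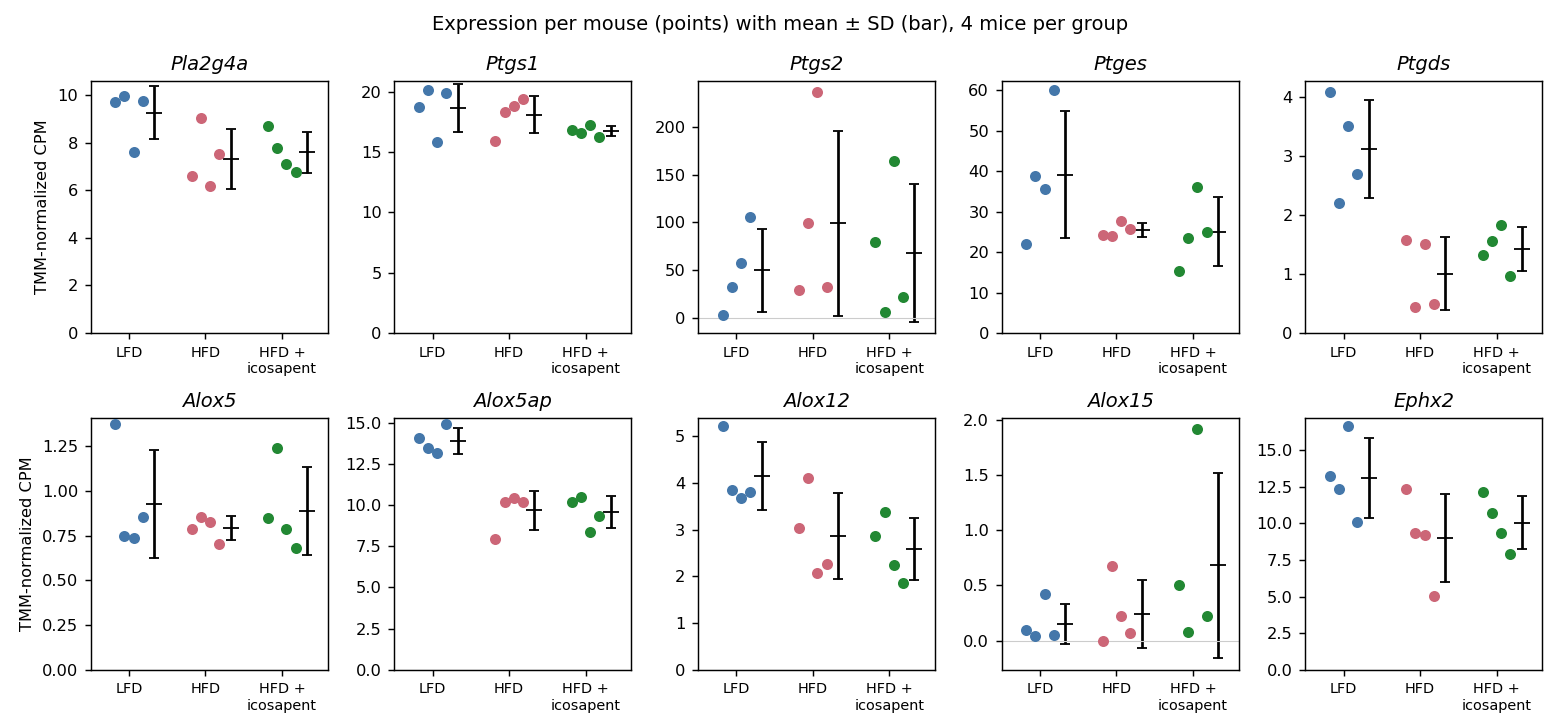
TMM-normalized CPM of the 10 genes in each of the 12 mice (points, linear axis from 0 or, where the SD bar crosses 0, just below it), with the mean ± SD of each group of 4 (bar). The 4 HFD mice lie below the 4 LFD mice for *Ptgds* and *Alox5ap*, HFD and LFD mice overlap for the other genes, and *Ptgs2* is scattered within every group.

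*Pla2g4a* (ENSMUSG00000056220, GRCm38 chromosome 1, 149829618 to 149961290, minus strand), one of several phospholipases A2 expressed here, is known for its preference for arachidonic acid and for its activation by calcium. Its level was 9.70, 9.96, 7.59, and 9.76 CPM in LFD mice, 6.58, 9.02, 6.16, and 7.50 CPM in HFD mice, and 8.70, 7.77, 7.08, and 6.78 CPM in icosapent ethyl–treated mice. In the HFD group, 3 of 4 mice were below all LFD mice, and the fourth was within the LFD range. The log2 fold change of HFD versus LFD mice was -0.35 (SE 0.17, 95% interval -0.73 to 0.036, edgeR adjusted p = 0.239).

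The cyclooxygenase genes differed in their spread. *Ptgs1* (ENSMUSG00000047250, chromosome 2, 36230426 to 36252272, plus strand), the constitutive form, was the steadiest of the 10, with levels between 15.8 and 20.2 CPM in all 12 mice. The group means were 18.7 ± 1.98 CPM in LFD, 18.1 ± 1.54 CPM in HFD, and 16.7 ± 0.401 CPM in icosapent ethyl–treated mice, and the log2 fold change of HFD versus LFD mice was -0.053 (SE 0.12, edgeR adjusted p = 0.820). The annotation places *Gm43621* over an exon of *Ptgs1* on the opposite strand, and the counting used the strand.

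*Ptgs2* (ENSMUSG00000032487, chromosome 1, 150100031 to 150108227, plus strand), the inducible cyclooxygenase, varied 107-fold between mice, from 118 to 9722 counts. It was at 2.22, 32.7, 57.5, and 106 CPM in LFD mice, 28.9, 99.7, 237, and 32.0 CPM in HFD mice, and 79.6, 5.82, 165, and 21.2 CPM in icosapent ethyl–treated mice. Each group spread widely and the ranges overlapped, although 1 HFD mouse lay above all LFD mice and the lowest LFD mouse lay below all HFD mice. The fitted log2 fold change of HFD versus LFD mice was 1.01 (SE 0.97, edgeR adjusted p = 0.554), and its 95% interval, -1.18 to 3.21, leaves room for a large difference in either direction. Leaving out single mice moved the value to between 0.13 and 1.69. *Ptgs2* is a classical immediate-early gene. The summed level of 7 other early response genes (*Fos*, *Fosb*, *Junb*, *Egr1*, *Nr4a1*, *Ier2*, and *Atf3*, chosen after the values were seen) also differed widely between mice, from 184 CPM in the LFD mouse with the lowest *Ptgs2* to 5062 CPM in the HFD mouse with 99.7 CPM of *Ptgs2*. The HFD mouse with the highest *Ptgs2*, 237 CPM, had an early response sum of 699 CPM, and another HFD mouse with 28.9 CPM had a sum of 4109 CPM. High *Ptgs2* and a high early response sum therefore did not always occur in the same mouse, and the part of such a response in the *Ptgs2* values was not tested.

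Both prostaglandin synthase genes had a lower mean in HFD mice. *Ptges* (ENSMUSG00000050737, chromosome 2, 30889471 to 30929863, minus strand), the inducible microsomal synthase that makes prostaglandin E2, was at 22.05, 38.9, 35.6, and 60.1 CPM in LFD mice and at 24.2, 24.1, 27.7, and 25.7 CPM in HFD mice. The LFD mice were spread widely and the HFD mice narrowly, within the LFD range. The log2 fold change was -0.62 (SE 0.24, 95% interval -1.18 to -0.072, edgeR adjusted p = 0.164). It depended on single mice in both directions. The value was -0.35 without the LFD mouse at 60.1 CPM (replicate 7) and -0.81 without the LFD mouse at 22.05 CPM (replicate 2).

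*Ptgds* (ENSMUSG00000015090, chromosome 2, 25466709 to 25470046, minus strand) encodes the lipocalin-type prostaglandin D synthase, which is abundant in the meninges and in glial cells of the brain. Its level was 4.08, 2.21, 3.49, and 2.68 CPM in LFD mice, 1.57, 0.445, 1.51, and 0.497 CPM in HFD mice, and 1.33, 1.55, 1.84, and 0.969 CPM in icosapent ethyl–treated mice, from 22 to 217 counts. Every HFD mouse was below every LFD mouse. The mean in HFD mice was 1.01 ± 0.619 CPM and in LFD mice 3.12 ± 0.833 CPM, and the fitted level in HFD mice was 0.320 times that in LFD mice, a log2 fold change of -1.64 (SE 0.45, 95% interval -2.67 to -0.62). By edgeR the adjusted p was 0.0860 and by DESeq2 it was 0.00495.

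Markers of nerve-associated and medullary cells had lower means in HFD mice, with overlapping groups and none called. All 6 Schwann and glial markers had counts in every group and a negative log2 fold change in HFD versus LFD mice, with -1.37 as the median. Of them, 4 had an unadjusted p below 0.05 and 0 passed the adjusted threshold of edgeR. Their summed level ranged from 8.34 to 38.8 CPM in LFD mice, from 5.02 to 15.2 CPM in HFD mice, and from 8.04 to 16.4 CPM in icosapent ethyl–treated mice. The LFD mouse with the highest sum, 38.8 CPM, also had the highest *Ptgds*. Without this mouse, the *Ptgds* log2 fold change was -1.47 (edgeR adjusted p = 0.147). HFD replicate 1 had a higher sum than LFD replicate 7 (15.2 against 8.34 CPM) but less *Ptgds* (1.57 against 2.68 CPM). The 8 chromaffin markers likewise all had negative values, around a median of -1.24 on the log2 scale, and 6 had an unadjusted p below 0.05 and 0 an adjusted one by edgeR. By mouse, the chromaffin sum was 15550, 9778, 17724, and 4997 CPM in LFD mice and 7868, 2446, 6806, and 2558 CPM in HFD mice. In icosapent ethyl–treated mice it was 7225, 8409, 8623, and 4446 CPM. The order of the mice was that of *Ptgds* in the HFD and the treated group, but not in the LFD group. The part of Schwann, glial, and chromaffin cells in the *Ptgds* values was not tested.

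Among the lipoxygenase genes and their partner, *Alox5ap* separated the groups most clearly. *Alox5ap* (ENSMUSG00000060063, chromosome 5, 149264767 to 149288153, plus strand) encodes the protein that presents arachidonic acid to 5-lipoxygenase and is known to be abundant in myeloid cells. It was at 14.0, 13.4, 13.1, and 14.9 CPM in LFD mice, 7.92, 10.2, 10.4, and 10.2 CPM in HFD mice, and 10.2, 10.5, 8.33, and 9.32 CPM in icosapent ethyl–treated mice. The LFD mice lay close together, and all 8 mice on the HFD, with or without icosapent ethyl, were below them. The mean in HFD mice was 9.68 ± 1.18 CPM and in LFD mice 13.9 ± 0.798 CPM, and the fitted level in HFD mice was 0.693 times that in LFD mice, a log2 fold change of -0.53 (SE 0.13, 95% interval -0.83 to -0.23). The adjusted p was 0.0719 by edgeR and 0.00448 by DESeq2, and in an edgeR fit over all 12 mice it was 0.0481, where 1.48% of all genes were called lower. *Ptgds* and *Alox5ap* were the 2 genes of the 9 with every HFD mouse below every LFD mouse, which held for 5.81% of all genes tested. An exon of *Alox5ap* is overlapped by a gene on the opposite strand.

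Macrophage markers were lower as a sum in the same mice as *Alox5ap*. All 10 had counts in every group, and 8 of 10 were lower in HFD than in LFD mice. By edgeR, 4 passed the adjusted threshold (1.45% of all genes did), all lower: *Cd68* fell by 1.25 on the log2 scale, *Lyz2* by 0.96, *C1qc* by 0.80, and *C1qa* by 0.74. *Csf1r* (log2 fold change -0.11), *Mrc1* (0.24), and *Cd163* (0.12) did not pass. Each of the 4 passed in 2 of the 8 fits without 1 mouse, in 6 of which no gene at all passed, and *Cd68* kept to between -1.34 and -1.14 in the 8. In icosapent ethyl–treated versus LFD mice, 9 of 10 were lower and edgeR called 0. The summed level of the 10 ranged from 729 to 1094 CPM in LFD mice and from 512 to 619 CPM in HFD mice. In icosapent ethyl–treated mice it ranged from 561 to 702 CPM, so that both HFD groups lay below the LFD group, as for *Alox5ap*. *Lyz2* was the largest part of this sum in every mouse, at 298 to 467 CPM in LFD and 177 to 225 CPM in HFD mice. LFD and HFD mice overlapped in *Adgre1*, *Csf1r*, *Mrc1*, *Cd163*, and *Fcgr1*. The part of macrophages in the *Alox5ap* values was not tested.

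**Figure D3:**
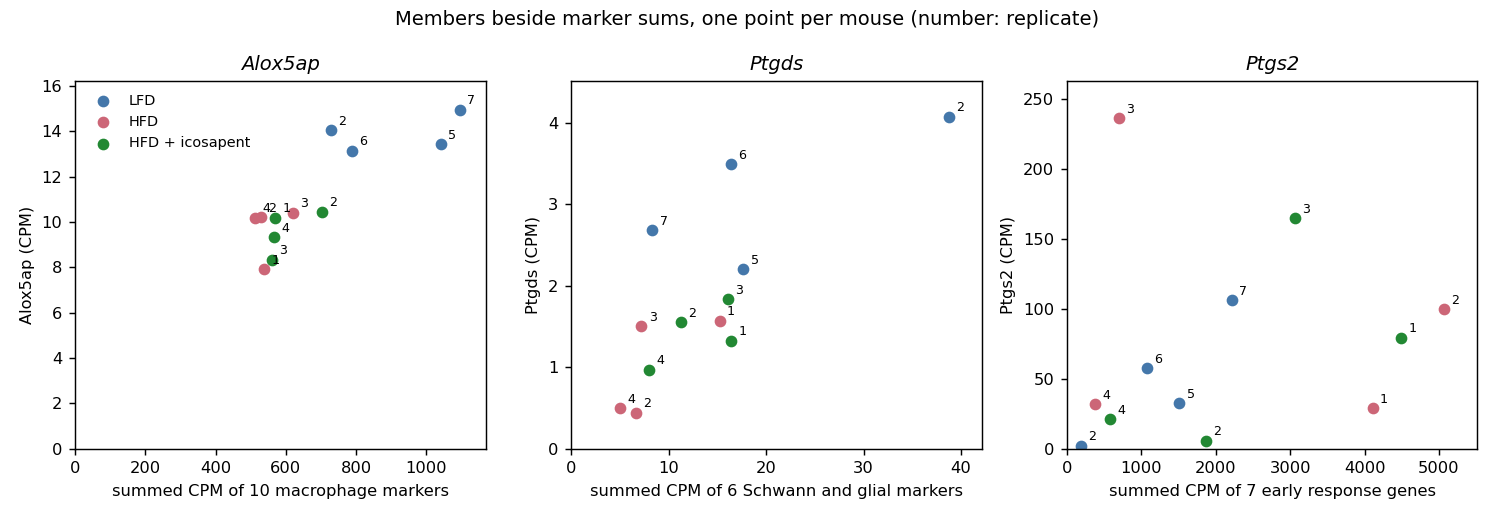
Level of *Alox5ap*, *Ptgds*, and *Ptgs2* (CPM, vertical) against the summed CPM of 10 macrophage markers, 6 Schwann and glial markers, and 7 early response genes (horizontal), with 1 numbered point per mouse. The LFD mice are highest on both axes for *Alox5ap*, and *Ptgs2* is highest in an HFD mouse with an early response sum of 699 CPM. For *Ptgds*, the LFD mouse numbered 2 is highest on both axes. The HFD mouse numbered 1 has a higher Schwann and glial sum than the LFD mouse numbered 7 but less *Ptgds*.

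*Alox5* (ENSMUSG00000025701, chromosome 6, 116410077 to 116461178, minus strand), the first enzyme of leukotriene synthesis, had between 31 and 73 counts per mouse. Its mean was 0.928 ± 0.301 CPM in LFD, 0.792 ± 0.0661 CPM in HFD, and 0.888 ± 0.244 CPM in icosapent ethyl–treated mice, with 1 LFD mouse at 1.37 CPM and the other 3 at 0.855 CPM or less. The log2 fold change of HFD versus LFD mice was -0.24 (SE 0.27, edgeR adjusted p = 0.610).

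*Alox12* (ENSMUSG00000000320, chromosome 11, 70241457 to 70255353, minus strand), the platelet-type 12-lipoxygenase, was at 5.23, 3.86, 3.67, and 3.80 CPM in LFD mice and at 3.04, 4.10, 2.07, and 2.26 CPM in HFD mice. In the HFD group, 3 of 4 mice were below all LFD mice, and the log2 fold change was -0.54 (SE 0.26, 95% interval -1.12 to 0.045, edgeR adjusted p = 0.232). All 6 platelet and megakaryocyte markers had counts in every group, with a summed level from 5.96 to 10.8 CPM in LFD mice, from 4.49 to 6.24 CPM in HFD mice, and from 5.23 to 6.51 CPM in icosapent ethyl–treated mice, and the part of platelets in the *Alox12* values was not tested.

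*Alox15* (ENSMUSG00000018924, chromosome 11, 70344152 to 70352031, minus strand), the 12/15-lipoxygenase of eosinophils and resident macrophages, was barely detected. It did not pass the filter on low counts in the main edgeR fit of any comparison. It had 5, 2, 19, and 2 counts in LFD mice, 0, 35, 9, and 3 counts in HFD mice, and 19, 3, 95, and 14 counts in icosapent ethyl–treated mice. The 95 counts of 1 icosapent ethyl–treated mouse were more than those of the other 3 mice of its group together. In DESeq2, run without that filter, the log2 fold change of icosapent ethyl–treated versus LFD mice was 2.17 (SE 0.97, adjusted p = 0.229). Without the filter, edgeR gave 2.16 (SE 1.07, adjusted p = 0.542). The edgeR fit over all 12 mice, where *Alox15* passed the filter, gave 2.17 (SE 1.11, adjusted p = 0.388). None of these fits gave this difference an adjusted p below 0.05.

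*Ephx2* (ENSMUSG00000022040, chromosome 14, 66084374 to 66124500, minus strand), the soluble epoxide hydrolase, converts epoxides of arachidonic and eicosapentaenoic acid to diols. It was at 13.3, 12.4, 16.7, and 10.1 CPM in LFD mice and at 12.4, 9.37, 9.24, and 5.06 CPM in HFD mice. In the HFD group, 3 of 4 mice were below all LFD mice, and the lowest and the highest HFD mouse differed 2.44-fold. The log2 fold change was -0.55 (SE 0.27, 95% interval -1.16 to 0.067, edgeR adjusted p = 0.246). It was -0.35 without the HFD mouse at 5.06 CPM (replicate 4) and -0.74 without the HFD mouse at 12.4 CPM (replicate 1).

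**Figure D4:**
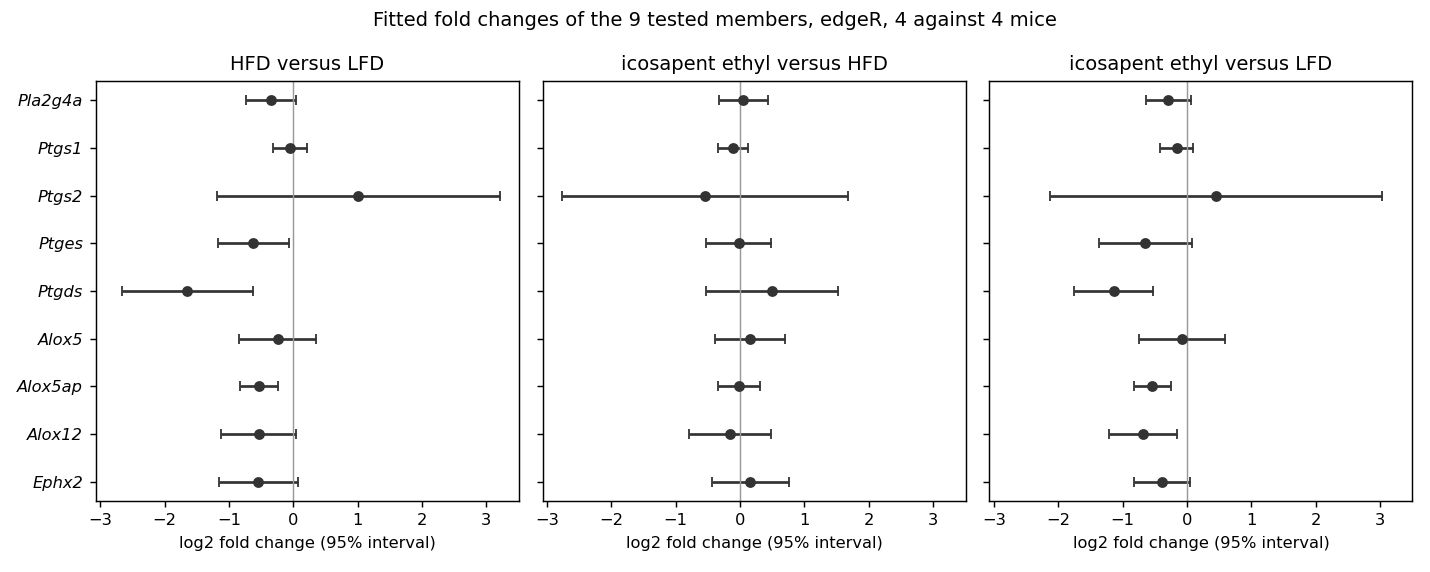
Log2 fold change (horizontal, point with 95% interval from the edgeR fit) of the 9 tested genes in HFD versus LFD, icosapent ethyl–treated versus HFD, and icosapent ethyl–treated versus LFD mice, 4 against 4 mice each. The intervals of *Ptges*, *Ptgds*, and *Alox5ap* lie below 0 in the left panel, those of all 9 genes cross 0 in the middle panel, and those of *Ptgds*, *Alox5ap*, and *Alox12* lie below 0 in the right panel.

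Icosapent ethyl–treated mice were compared with HFD mice to ask whether the omega-3 ester moved these genes on an unchanged diet. None of the 9 genes tested had an adjusted or an unadjusted p below 0.05 by edgeR, and DESeq2 called none of them. Of all 15913 genes tested by edgeR, 0.0% passed its adjusted threshold and 1.39% (221 genes) had an unadjusted p below 0.05. DESeq2 called 7 of the 26076 genes to which it gave an adjusted p (0.0268%). The 9 genes divided into 5 lower and 4 higher, and their median on the log2 scale was -0.016, beside 0.0040 for all genes. *Alox5ap* had a log2 fold change of -0.016 (SE 0.15), with a 95% interval from -0.35 to 0.31. *Ptgds* had 0.50 (SE 0.45, 95% interval -0.53 to 1.52), with 1 of the 4 treated mice above all HFD mice, and leaving out single mice moved it to between 0.25 (without HFD replicate 2) and 0.81 (without HFD replicate 1). *Ptges* had -0.022 (95% interval -0.53 to 0.49), *Ephx2* 0.15, *Alox5* 0.16, *Pla2g4a* 0.052, *Ptgs1* -0.11, and *Alox12* -0.16. For *Ptgs2*, the log2 fold change of -0.55 had a 95% interval from -2.77 to 1.67. Without icosapent ethyl replicates 1 and 2, none of the genes was called either, and *Pla2g4a* (-0.078), *Ptges* (0.27), *Alox5* (-0.11), and *Ephx2* (-0.060) changed sign.

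Icosapent ethyl–treated mice were also set against LFD mice. This comparison shares its LFD mice with the first and its treated mice with the second, so its values are not independent of theirs. Of the 9 genes tested, 8 were lower in treated mice, and the median log2 difference was -0.38, beside -0.0037 for all genes. None passed the adjusted threshold of edgeR. Of all 15935 genes tested, 0.0% passed it and 14.0% (2225) had an unadjusted p below 0.05. *Ptgds*, *Alox5ap*, and *Alox12* had an unadjusted p below 0.05 and were lower, as were 6.67% of all genes, and in these 3 every treated mouse was below every LFD mouse, which held for 3.69% of all genes. DESeq2 called *Ptgds* and *Alox5ap*, 2 of the genes, lower, beside 1.29% of all genes. The log2 fold change was -1.13 for *Ptgds* (SE 0.27), with an edgeR adjusted p of 0.194 and a DESeq2 adjusted p of 0.00709. It was -0.54 for *Alox5ap* (SE 0.13), with 0.192 as the edgeR and 0.00242 as the DESeq2 adjusted p. *Alox12* was at 2.87, 3.37, 2.24, and 1.86 CPM in treated mice, all below the LFD range, at a log2 fold change of -0.68 (SE 0.23, edgeR adjusted p = 0.270, DESeq2 adjusted p = 0.0873). *Ptges* (-0.64), *Ephx2* (-0.38), and *Pla2g4a* (-0.29) were near their values in HFD versus LFD mice. Without icosapent ethyl replicates 1 and 2, edgeR again called none of the genes, with *Ptgds* at -1.16, *Alox5ap* at -0.65, *Alox12* at -1.01, and *Ptges* at -0.35.

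The other genes of eicosanoid release, synthesis, breakdown, and reception were taken from a list of 93 symbols, of which 89 were found and 60 passed the filter. In HFD versus LFD mice, 33 of the 60 were lower and 27 higher, and their median on the log2 scale was -0.086. By edgeR, 2 of the 60 passed the adjusted threshold, both lower, beside 1.45% of all genes. An unadjusted p below 0.05 was reached by 14 lower and 8 higher genes, beside 24.8% of all genes in either direction. DESeq2 called 10 lower and 2 higher, beside 12.3% of all genes.

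Both genes that passed encode enzymes that act on lipid mediators. *Pla2g7* (ENSMUSG00000023913), the secreted phospholipase A2 that hydrolyses platelet-activating factor and is a product of macrophages, was at 43.1, 50.2, 37.2, and 58.0 CPM in LFD mice and at 26.2, 19.5, 31.1, and 22.9 CPM in HFD mice. It fell by 0.92 on the log2 scale (SE 0.17, edgeR adjusted p = 0.0450), with no overlap of the groups, and was at 27.9 ± 5.42 CPM in icosapent ethyl–treated mice. *Dpep1* (ENSMUSG00000019278), a dipeptidase that cleaves leukotriene D4 to E4, was at 80.7, 92.5, 78.1, and 102 CPM in LFD mice and at 63.0, 57.0, 58.7, and 63.5 CPM in HFD mice. It fell by 0.55 on the log2 scale (SE 0.093, edgeR adjusted p = 0.0398), again with no overlap, and was at 61.4 ± 2.53 CPM in icosapent ethyl–treated mice. In 7 of the 8 fits without 1 mouse, neither gene nor any other gene of the list passed, and without HFD replicate 1, 9 genes did. The fold changes moved less, from -1.03 to -0.82 for *Pla2g7* and from -0.60 to -0.49 for *Dpep1*, and in 6 of these fits none of all genes tested passed.

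Next to *Dpep1* in leukotriene metabolism, *Ggt5*, which converts leukotriene C4 to D4, averaged 23.6 ± 4.89 CPM on the LFD against 13.4 ± 2.14 CPM on the HFD, without overlap (log2 fold change -0.82, SE 0.17, edgeR adjusted p = 0.0553, DESeq2 adjusted p = 0.00156). *Mgst2*, a glutathione transferase that can make leukotriene C4, averaged 11.3 ± 3.56 CPM on the LFD against 25.2 ± 9.26 CPM on the HFD (log2 fold change 1.16, SE 0.34, edgeR adjusted p = 0.0933, DESeq2 adjusted p = 0.0136). The 7 tested genes of leukotriene synthesis thus included values in both directions, 4 lower and 3 higher.

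Among the 8 other prostanoid synthase genes tested, 5 were lower and 3 higher, and none passed the adjusted threshold of edgeR. The higher ones were *Fam213b* (log2 fold change 0.82, edgeR adjusted p = 0.107, DESeq2 adjusted p = 0.0321), *Akr1b3* (0.47, edgeR adjusted p = 0.102), and *Ptges2* (0.19, edgeR adjusted p = 0.152). The lower ones included *Hpgds*, another prostaglandin D synthase gene (-0.89, edgeR adjusted p = 0.122, DESeq2 adjusted p = 0.0334). *Ptgis*, the prostacyclin synthase gene, averaged 130.2 ± 13.6 CPM on the LFD against 105 ± 3.24 CPM on the HFD (log2 fold change -0.32, edgeR adjusted p = 0.0732, DESeq2 adjusted p = 0.0404), and *Cbr1*, a carbonyl reductase that acts on prostaglandin E2, averaged 78.7 ± 3.57 and 64.4 ± 6.60 CPM (-0.30, edgeR adjusted p = 0.102). Of the 7 genes of breakdown and transport, *Ptgr1*, a reductase that inactivates prostaglandins and leukotriene B4, averaged 91.3 ± 14.9 CPM on the LFD against 62.4 ± 6.63 CPM on the HFD (-0.56, edgeR adjusted p = 0.0576, DESeq2 adjusted p = 0.00843), and *Zadh2*, which encodes another prostaglandin reductase, averaged 111 ± 8.72 and 136 ± 13.3 CPM (0.29, edgeR adjusted p = 0.106). Both epoxide hydrolase genes tested beside *Ephx2* had negative values, *Ephx4* with a log2 fold change of -1.50 (SE 0.45, edgeR adjusted p = 0.102, DESeq2 adjusted p = 0.0135) and *Ephx1*, the microsomal enzyme, with -0.21 (edgeR adjusted p = 0.275).

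In the remaining classes, no gene but *Pla2g7* passed the adjusted threshold of edgeR in HFD versus LFD mice. Of the 10 other phospholipases A2 tested, 6 were lower and 4 higher, among them *Pla2g6*, the calcium-independent enzyme, with a log2 fold change of 0.26 (edgeR adjusted p = 0.171) and *Pafah2* with 0.21 (edgeR adjusted p = 0.270). Of the 7 genes of phospholipid and monoacylglycerol hydrolysis tested, 2 were lower and 5 higher. The lower ones were the diacylglycerol lipase gene *Dagla* with -0.69 (edgeR adjusted p = 0.104, DESeq2 adjusted p = 0.0138) and *Faah*, which degrades anandamide, with -0.31 (edgeR adjusted p = 0.142). The largest value among the higher ones was 1.03 for *Napepld* (SE 0.44, edgeR adjusted p = 0.189), with overlapping groups. Of the 7 cytochrome P450 genes tested, 2 were lower and 5 higher, with *Cyp2j9* at -0.94 (edgeR adjusted p = 0.140, DESeq2 adjusted p = 0.0423) and *Cyp2c23* at 0.45 (edgeR adjusted p = 0.312). Of the 11 receptor genes tested, 8 were lower and 3 higher, and those with the lowest p were *Ptger1*, a receptor of prostaglandin E2 (-0.91, edgeR adjusted p = 0.143), and *Cysltr1*, a receptor of cysteinyl leukotrienes (-0.55, edgeR adjusted p = 0.160). *Aloxe3* was the 1 other lipoxygenase gene of the 4 listed that passed the filter, with a log2 fold change of 0.35 (edgeR adjusted p = 0.575).

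**Figure D5:**
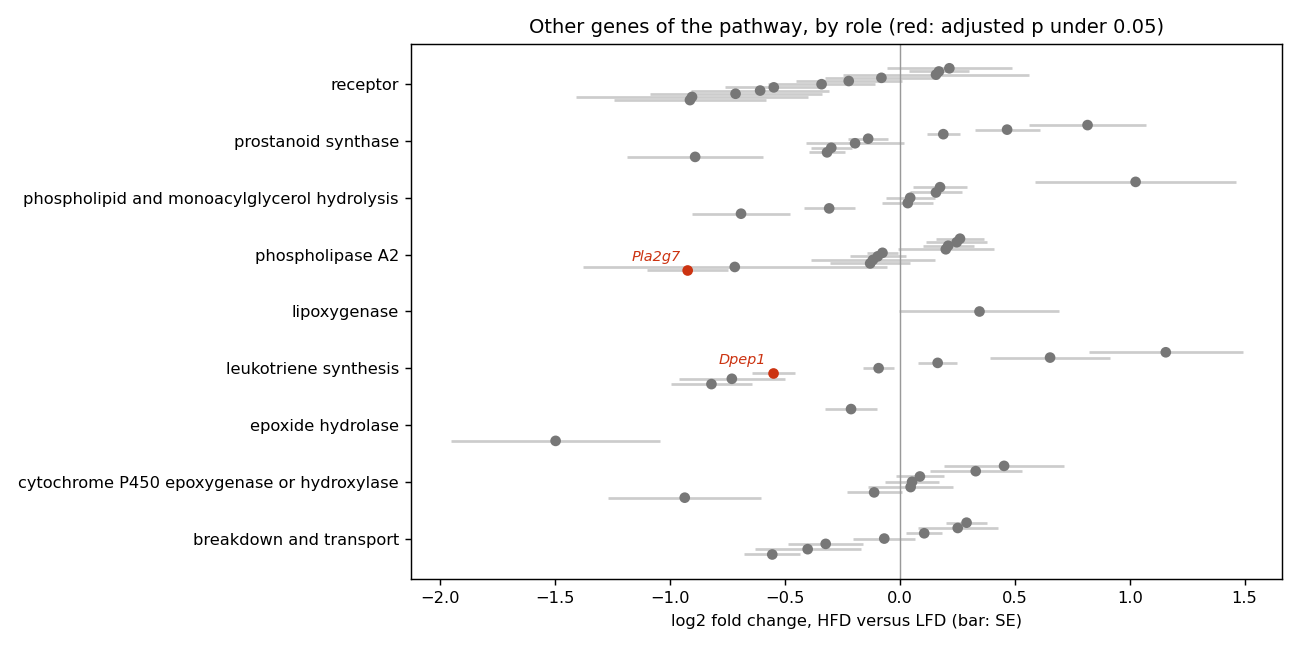
Log2 fold change (horizontal, bar: SE) of the 60 tested genes of the wider pathway in HFD versus LFD mice, 4 against 4, grouped by role. *Pla2g7* and *Dpep1* (red) have an edgeR adjusted p below 0.05, and most classes hold values on both sides of 0.

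In icosapent ethyl–treated versus HFD mice, edgeR called 0 of the 60 genes of the list, 1 had an unadjusted p below 0.05, and DESeq2 called 0. *Pla2g7* had a log2 fold change of 0.16 (SE 0.19) and *Dpep1* of 0.020 (SE 0.072) in this comparison. In icosapent ethyl–treated versus LFD mice, edgeR called 0 of the 60, 14 had an unadjusted p below 0.05 (14.0% of all genes did), and DESeq2 called 3 (2.69% of all genes). These 3 were *Pla2g7* (-0.76), *Ggt5* (-0.82), and *Dpep1* (-0.52), in each of which every treated mouse was below every LFD mouse, as in 3.69% of all genes.

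The genes most similar in pattern to *Alox5ap*, *Ptgds*, and *Ptges*, the 3 genes with the lowest p in HFD versus LFD mice, were found by the mean absolute difference of z scores of log2 CPM over the 12 mice among 13458 genes, for which the median over genes was between 1.10 and 1.13. For *Alox5ap* they were *Gm12191* (0.242), *Aim2* (0.261), and *Tmsb4x* (0.282). For *Ptgds* they were *Fam57b* (0.178), *Nefl*, which encodes the light neurofilament chain (0.189), and *1500009L16Rik* (0.202). For *Ptges* they were *Gsdmd* (0.263), *Rnf2* (0.264), and *Col22a1* (0.266).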

How the data were processed

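The deposited values are unnormalized read counts, 1 per gene and mouse, from RNA-seq of the adrenal cortex of 12 mice. The authors made them from strand-specific total RNA libraries with cutadapt, STAR on GRCm38, and HTSeq 0.6.1p1 in reverse-strand mode on GENCODE M12 genes. Symbols and coordinates were matched for 49326 of 49585 genes in GENCODE M21. Multi-mapping reads could not be reassigned from counts. Groups and mouse numbers came from the labels. Each mouse is a separate animal, and none of the 66 library pairs held copies of one library (lowest chi-square per degree of freedom 24.5).

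The fits used edgeR 4.0.16 under R 4.3.3 (TMM factors, filterByExpr at a minimum count of 10, robust quasi-likelihood F-test, Benjamini-Hochberg adjustment over all genes tested, threshold 0.05) in the 8 mice of each comparison, without covariates. Alternatives were DESeq2 1.42.0, its size factors in edgeR, library totals without scaling, no filter, all 12 mice in 1 fit, each mouse left out in turn, and the replicate number as a block between the icosapent ethyl and HFD groups. Between these groups, the correlation of deviations from the group mean was, for mice of the same number, 0.254, 0.122, 0.354, and 0.654. Each is above the 0.1 taken to mark pairs. Pairs with different numbers also passed it, at 0.621, 0.474, and 0.388, and the labels name no shared cage or day. The edgeR fit of HFD versus LFD mice was also run on simulated counts. That run does not bear on how the calls changed when 1 mouse was left out.

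The 10 genes, the pathway and marker lists, and the tests were chosen with earlier results of these data known. Named genes of the wider list were those past the threshold and up to 2 per role with the lowest p in HFD versus LFD mice. *Napepld*, *Fam213b*, *Akr1b3*, *Ptges2*, *Hpgds*, *Pla2g5*, and *Pla2g2f* were added after the values were seen. The early response genes, the motifs, and the fits without icosapent ethyl replicates 1 and 2 together were chosen after the values were seen. Promoter sequences came from RefSeq.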

Additional observations from a re-analysis of the deposited data

Results flagged for a closer look

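In 4 of the 30 groups of 4 mice checked over the 10 genes, 1 mouse lay apart from the other 3, in that the ratio of its gap to the nearest mouse and the whole range was above Dixon's critical value. For normally distributed values, chance flags about 1 in 20 groups. The rate for untransformed CPM, as used here, was not determined. *Pla2g4a* was at 7.59 CPM in LFD replicate 6, with the next mouse at 9.70 CPM (ratio 0.889). *Alox5ap* was at 7.92 CPM in HFD replicate 1, with the next at 10.2 CPM (ratio 0.913). *Alox12* was at 5.23 CPM in LFD replicate 2, with the next at 3.86 CPM (ratio 0.882). *Alox15* was at 0.423 CPM in LFD replicate 6, with the next at 0.0940 CPM (ratio 0.865), which corresponds to 19 and 5 counts.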

How the results depend on the processing

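Leaving out 1 mouse at a time never gave any of the genes an adjusted p below 0.05, and kept the sign of 198 of 216 fold changes. Those that changed sign were near 0 or wide. The log2 fold changes ranged, for HFD versus LFD mice, from -0.12 to 0.0025 for *Ptgs1* and from -0.34 to 0.025 for *Alox5*. For icosapent ethyl–treated versus HFD mice they ranged from -0.022 to 0.17 for *Pla2g4a*, -1.46 to 0.34 for *Ptgs2*, -0.25 to 0.15 for *Ptges*, -0.042 to 0.27 for *Alox5*, -0.10 to 0.047 for *Alox5ap*, -0.31 to 0.067 for *Alox12*, and -0.042 to 0.35 for *Ephx2*. For icosapent ethyl–treated versus LFD mice they ranged from -0.48 to 1.15 for *Ptgs2* and from -0.27 to 0.18 for *Alox5*. In HFD versus LFD mice, *Ptgds* kept to between -1.95 and -1.39 and *Alox5ap* to between -0.55 and -0.45.

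Library totals without scaling turned *Ptges* to 0.035 and *Alox5ap* to 0.059 in icosapent ethyl–treated versus HFD mice, and leaving out icosapent ethyl replicates 1 and 2 together, chosen after seeing the data, turned *Pla2g4a* to -0.078, *Ptges* to 0.27, *Alox5* to -0.11, and *Ephx2* to -0.060. DESeq2 called 2 of the genes in HFD versus LFD mice and 2 in icosapent ethyl–treated versus LFD mice, where edgeR called 0, and the fit over all 12 mice called 1, *Alox5ap*, in HFD versus LFD mice. Of the wider list in HFD versus LFD mice, DESeq2 called 12, the 12-mouse fit 4, and the fits without 1 mouse 0 to 9, beside 2, and DESeq2 called 3 in icosapent ethyl–treated versus LFD mice. Over all genes in HFD versus LFD mice, edgeR called 230, DESeq2 1965, the 12-mouse fit 556, unscaled totals 84, and fits without 1 mouse 0 to 918, with 0 in 6 of 8. In icosapent ethyl–treated versus LFD mice, DESeq2 called 417 and the 12-mouse fit 2. The causes were not tested. With the replicate block, 0 of the genes and 0 of the wider list were called in icosapent ethyl–treated versus HFD mice, as without it, and 696 in place of 221 genes had an unadjusted p below 0.05.

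Counts were low for *Alox15* (0 to 95), *Alox5* (31 to 73), and *Ptgds* (22 to 217), and *Ptgs2* spread widely within each group of 4 mice. The part of sequencing depth in the spread between mice was not tested.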

Other observations

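*Ptgs2* had its own set of genes of similar pattern over the 12 mice, computed after its values were seen. By the mean absolute difference of z scores of log2 CPM, the nearest of 13458 genes were *Pom121* (0.258), *Mafg*, which encodes a small MAF transcription factor (0.259), and *Btg1*, an antiproliferative gene (0.304), beside a median of 1.12 over all genes.

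The 6 mesothelial markers had counts in every group, and 5 of 6 were higher in icosapent ethyl–treated than in HFD mice, around a median log2 fold change of 1.83, with 0 called by edgeR and treated replicates 1 and 2 highest in *Upk3b*, *Upk1b*, *Krt19*, and *Msln*. Their summed level, of which *Lrrn4* made up the largest part in every LFD and HFD mouse, ranged from 9.44 to 15.7 CPM in LFD mice, from 13.5 to 21.4 CPM in HFD mice, and from 14.2 to 35.6 CPM in icosapent ethyl–treated mice. The icosapent ethyl–treated mouse with 95 counts of *Alox15* had the lowest sum of its group, 14.2 CPM. Neutrophil markers, which bear on *Alox5* and *Alox5ap* as genes of myeloid cells, ranged in sum from 4.04 to 16.6 CPM in LFD mice, from 13.0 to 20.1 CPM in HFD mice, and from 8.78 to 26.8 CPM in icosapent ethyl–treated mice, so that these ranges overlapped.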
